A study of Homo sapiens with 6 samples.

Results

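The endoplasmic reticulum folds, quality-checks and exports secreted and membrane proteins, and 38 genes of this work were followed here in REH cells, an established human line grown from B-cell precursor acute lymphoblastic leukaemia. They were taken by gene symbol from the authors' deposited table, where all 38 were found among 26364 rows, and all 38 are among the 12061 genes with an adjusted p, which are called tested here. By role they form 5 classes: 4 stress sensors and transcription factors, 15 chaperones and folding enzymes, 10 genes of degradation, 4 genes of COPII export, and 5 genes of translocation and other membrane functions.

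The study set 3 REH cultures carrying a lentiviral short hairpin RNA against STAT3 (shSTAT3) beside 3 carrying a scramble hairpin (scramble), each from an independent experiment. Both groups were selected in puromycin for 3 days, and dead cells were taken out before the RNA was made. The sources used here do not say how many hairpins against STAT3 were used, or whether the selected cells were clonal. The table holds, per gene, a mean of normalized counts over the 6 libraries and a log2 fold change with its p and adjusted p. It holds no value per library, so the spread between cultures cannot be read from it. The standard error that a fold change and its p imply is that of DESeq2's model, and is no direct measure of this spread.

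STAT3 itself had a log2 fold change of −1.75 per the authors' deposited table (adjusted p = 7.78e-74). The table does not say which group is on top of its ratio, and a negative value was read as lower in shSTAT3 because STAT3 is the target of the hairpin, so STAT3 does not check the labels. Of 10 B-cell precursor markers 9 were tested, 2 higher and 3 lower, with a summed level of 67614 normalized counts in shSTAT3 and 65797 in scramble cells and a mean of 16549 normalized counts for DNTT per the authors' deposited table, while VPREB1 was listed at 0. Plasma cells, which carry large amounts of endoplasmic reticulum, have the defining markers JCHAIN and TNFRSF17, both at 0 per the authors' deposited table. The other 4 of 6 plasma cell markers were tested and 2 of them, SDC1 and IRF4, were lower in shSTAT3, with a summed level of 1448 normalized counts in shSTAT3 and 1420 in scramble cells, most of it MZB1. Myeloid markers, 4 of 7 tested with 1 higher and 2 lower, summed to 2777 normalized counts in shSTAT3 and 3183 in scramble cells, most of it MPO. Of 6 T-cell markers CD4 alone was tested, and CD3D and CD7 were at 0. The part of other cell types in the results was not tested, and in bulk RNA fewer cells of a type and less RNA per cell cannot be told apart. A further 74 genes have a fold change and no p per the authors' deposited table, of which 64 are negative and 0 are among the 38 genes.

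Unfolded protein in the endoplasmic reticulum is sensed by the membrane proteins IRE1 (encoded by ERN1), ATF6 and PERK (encoded by EIF2AK3). Active IRE1 cuts a short intron out of XBP1 mRNA in the cytoplasm, so that a longer and stronger XBP1 transcription factor is made, while ATF6 is cut in the Golgi to release its own transcription factor. Both factors raise genes for chaperones, for endoplasmic reticulum-associated degradation (ERAD), in which misfolded proteins are pulled back to the cytosol for the proteasome, and for transport. B cells are known for this pathway because XBP1 is needed for plasma cells to secrete antibody.

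The intron that IRE1 removes is shown because the table counts reads per gene and so does not separate the 2 forms of XBP1 mRNA. GENCODE 29 places its 26 bases at chr22:28796124-28796149 on the minus strand (GRCh38), within the coding sequence of the unspliced form, and a second transcript places it 2 bases further along. Capitals mark the intron.
XBP1 intron: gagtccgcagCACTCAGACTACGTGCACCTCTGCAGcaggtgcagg

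Many endoplasmic reticulum chaperone promoters carry the endoplasmic reticulum stress response element (ERSE), where the factor NF-Y binds CCAAT and ATF6 binds CCACG. The search was for CCAAT, any 9 bases, then CCACG on either strand, in RefSeq promoters from 250 bases before to 50 after the start (GRCh38.p14). It was found in 27 of 35116 promoters (0.0769%), which belong to 25 of 27305 genes (0.0916%). Among tested genes with a promoter sequence it was found in 18 of 9059 (0.199%). In the set it was found in 7 of the 34 genes that have a promoter sequence, namely CALR, CANX, CRELD2, HSP90B1, HSPA5, PDIA6 and XBP1. A related element, ERSE-II, was searched as ATTGG, any 1 base, then CCACG on either strand. It was found in 19 promoters (0.0541%) and in 12 of the 9059 tested genes with a promoter sequence (0.132%), among them HERPUD1, HYOU1 and SDF2L1. ATTGG is the complement of CCAAT read backwards. Both elements thus hold the same pair of boxes, at different spacing and with CCAAT turned the other way relative to CCACG. In this search for exact matches, no promoter of the set held both elements. CANX is not printed because its match lies after the start of another of its transcripts. The element is in capitals below, read along the strand of the gene, with up to 15 bases on each side, because both boxes and their spacing can then be compared between the genes described next.
HSPA5, chr9:125241376-125241424, minus strand: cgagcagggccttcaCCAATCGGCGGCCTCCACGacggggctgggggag
XBP1, chr22:28800588-28800636, minus strand: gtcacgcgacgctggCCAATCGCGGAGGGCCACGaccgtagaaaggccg
PDIA6, chr2:10812838-10812886, minus strand: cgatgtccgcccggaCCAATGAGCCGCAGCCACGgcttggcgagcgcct
HSP90B1, chr12:103930201-103930249, plus strand: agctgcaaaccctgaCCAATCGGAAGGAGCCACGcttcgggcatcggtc
CALR, chr19:12938369-12938417, plus strand: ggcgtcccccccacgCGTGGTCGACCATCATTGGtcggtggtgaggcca
CRELD2, chr22:49918539-49918587, plus strand: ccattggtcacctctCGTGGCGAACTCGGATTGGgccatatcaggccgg
HYOU1, chr11:119057259-119057299, minus strand: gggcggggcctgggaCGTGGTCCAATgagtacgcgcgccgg
HERPUD1, chr16:56932010-56932050, plus strand: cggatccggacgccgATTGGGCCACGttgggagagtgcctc
SDF2L1, chr22:21642099-21642139, plus strand: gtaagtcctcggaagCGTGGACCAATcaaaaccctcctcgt
In HSPA5, XBP1, PDIA6 and the printed HSP90B1 site CCAAT comes first along the gene, while in CALR and CRELD2 the element runs the other way. HSP90B1 and HYOU1 each hold 2 copies of their element, of which 1 is printed.

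The comparison asked how RNA of the secretory pathway stands in REH cells that carry the hairpin against STAT3. Calls differed in direction between the classes, a difference that was not tested. Transcripts of 3 of the 4 sensors and transcription factors fell and 0 rose, by DESeq2's adjusted p or at an unadjusted p under 0.05, while 7 of 15 chaperones and folding enzymes rose and 3 fell, and 5 of 10 degradation genes rose and 2 fell. Of the 4 COPII genes 1 rose and 1 fell, and of the 5 translocation and other membrane genes 2 rose and 1 fell. Calls were made at an adjusted p under 0.05 per the authors' deposited table, at which 21.3% of all tested genes rose and 23.2% fell.

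Over the whole set 15 genes rose and 10 fell, so that 25 of 38 (65.8%) were called, against 44.5% of all tested genes. The share that rose was 39.5% of the set and 21.3% of all tested genes, and the share that fell was 26.3% of the set and 23.2% of all tested genes. These are well-expressed genes, with means of 180 to 9238 normalized counts per the authors' deposited table. Among the 8413 tested genes within that range 50.4% were called, with 23.6% higher and 26.8% lower in shSTAT3. The log2 fold changes had a median of 0.03 in the set and of 0.00 over all tested genes per the authors' deposited table, with 19 positive and 19 negative values in the set. By class it was −0.45 for sensors and transcription factors, 0.15 for chaperones and folding enzymes, 0.16 for degradation, −0.14 for COPII export and 0.10 for translocation and other membrane genes per the authors' deposited table. No test was made between classes, since genes of a class share their libraries and are not replicates.

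**Figure D1:**
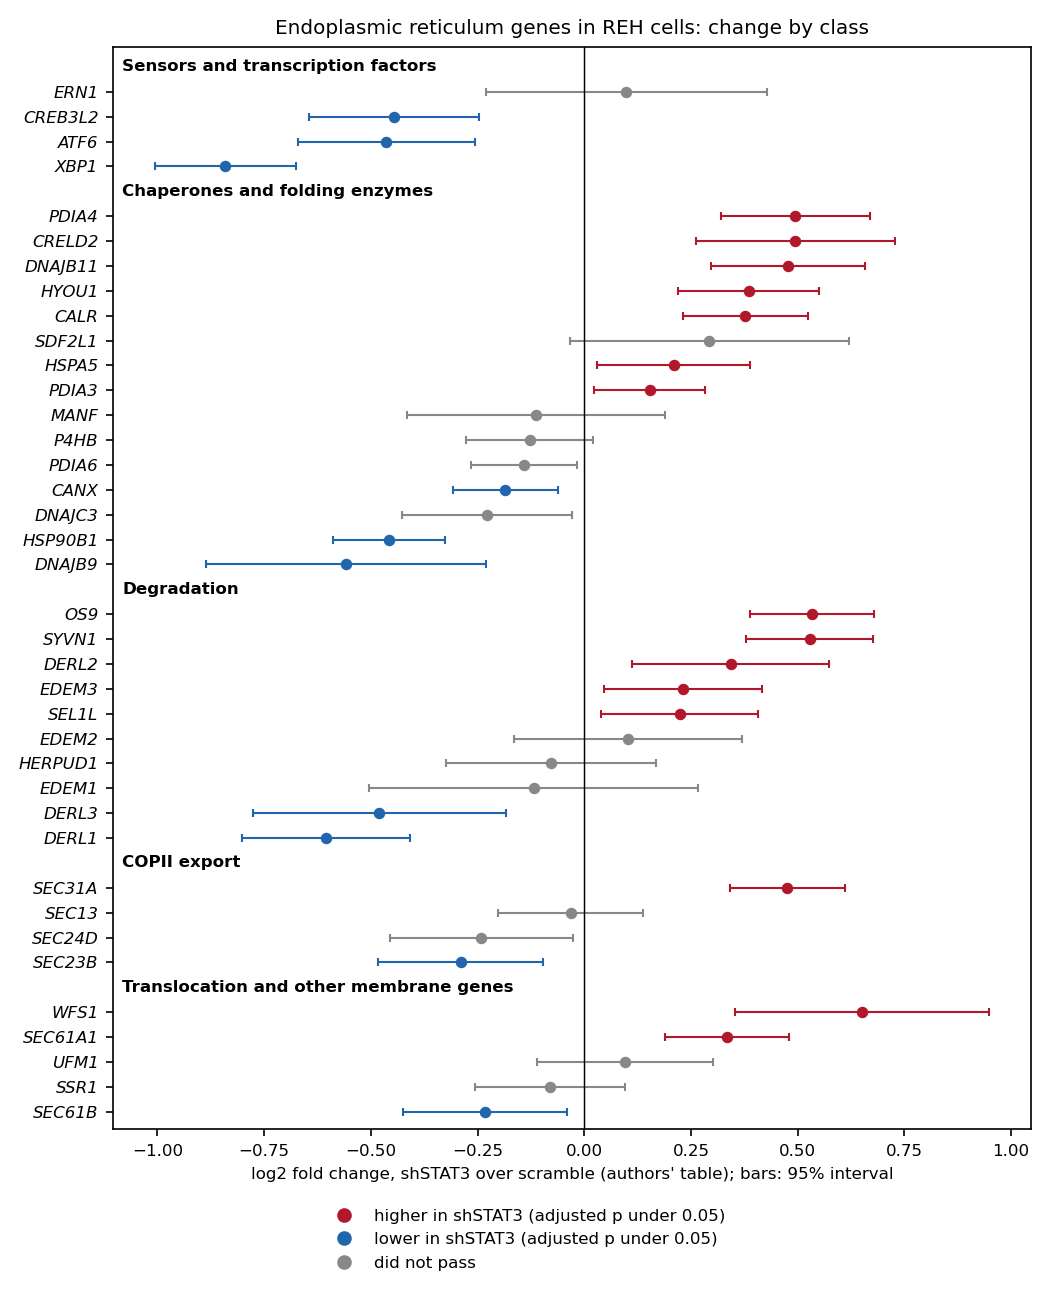
Log2 fold change of each of the 38 genes, shSTAT3 over scramble, from the authors' deposited table (horizontal axis), with bars for the 95% interval implied by the fold change and its p, grouped by class and coloured by call. The 3 called sensor and transcription factor genes lie left of 0, while most called chaperone and degradation genes lie right of it.

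Changes were small on the scale of the table, whose fold changes are pulled toward 0, so that group levels and counts past a fold are those of shrunken values. Only 3 of the 38 genes, XBP1, DERL1 and WFS1, reached 1.5-fold in either direction, and 22 of the 25 called genes stayed under it, as did 61.1% of all called genes. Summed over the set, the levels implied by mean and fold change came to 76630 normalized counts in shSTAT3 and 75589 in scramble cells, a ratio of 101%. The same sum by class gave 64.2% of scramble for sensors and transcription factors, 101% for chaperones and folding enzymes, 106% for degradation, 110% for COPII export and 113% for translocation and other membrane genes. These sums follow the most abundant genes of each class.

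**Figure D2:**
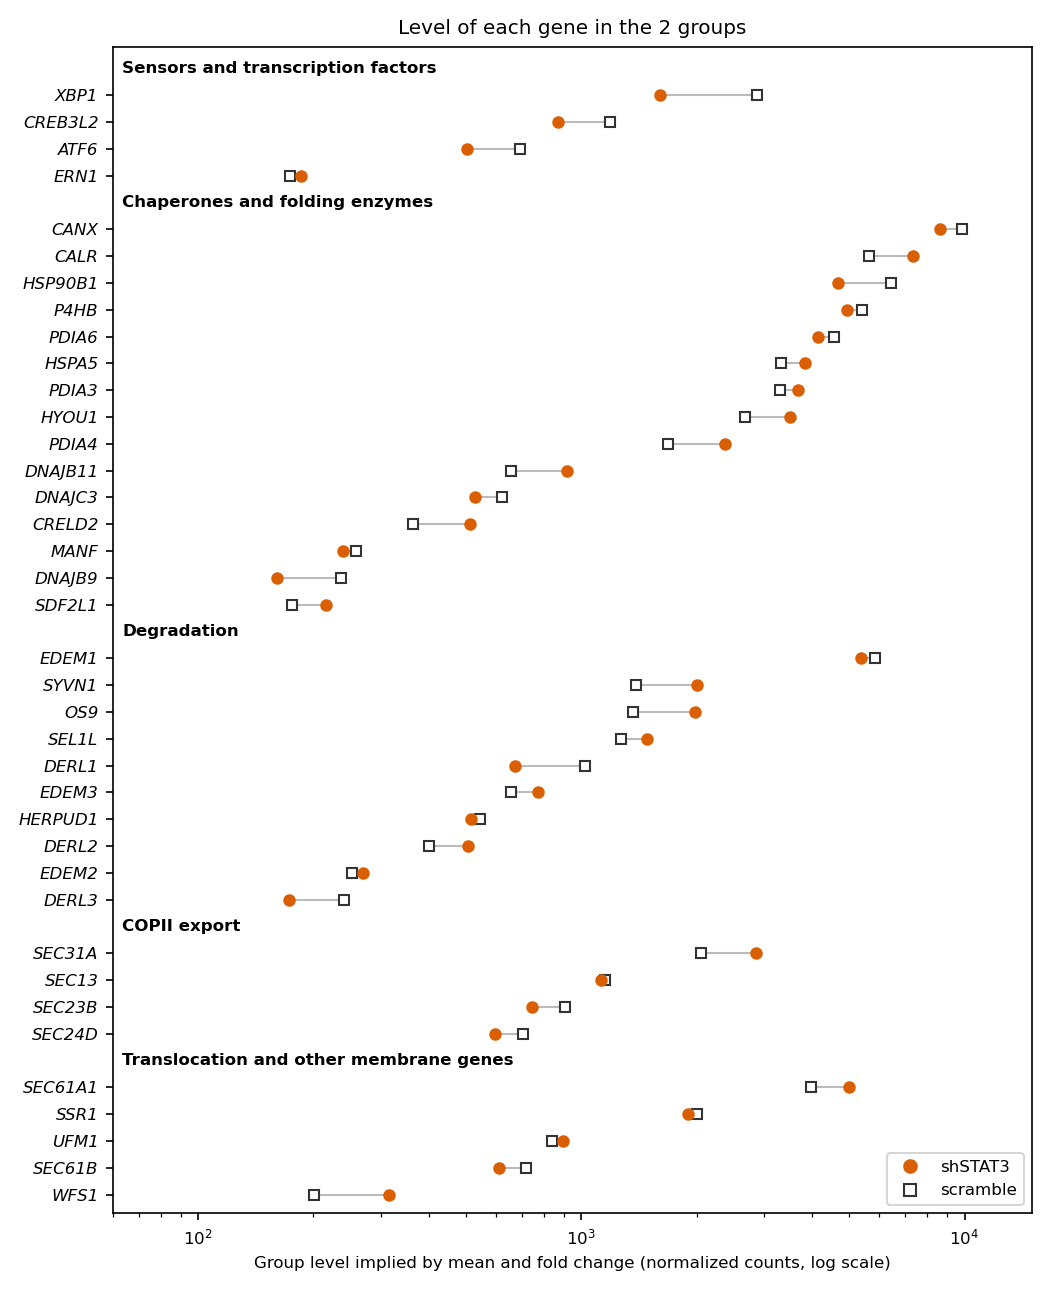
Level of each gene in shSTAT3 (filled circles) and scramble cells (open squares), in normalized counts on a log axis, as implied by the mean and the fold change of the authors' deposited table, ordered by mean within each class. The largest gap among the sensors and transcription factors is that of XBP1, at 1600.4 in shSTAT3 and 2867 in scramble cells.

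Among the sensors and transcription factors, XBP1 fell furthest, to 55.8% of scramble, with 1600.4 normalized counts in shSTAT3 and 2867 in scramble cells. In the authors' deposited table its log2 fold change was −0.84 (adjusted p = 1.06e-21), with an implied standard error of 0.084 and a 95% interval of −1.01 to −0.68. This was the lowest fold change of all 38 genes. XBP1 lies on the minus strand of chromosome 22, from 28794555 to 28800597 (GENCODE 29 on GRCh38, as for the positions that follow).

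ATF6, the sensor released by cutting in the Golgi, fell to 503 normalized counts in shSTAT3, against 693 in scramble cells (log2 fold change −0.46, adjusted p = 6.98e-05 per the authors' deposited table). CREB3L2, a membrane-bound transcription factor cut in the same way and known in mouse cartilage for raising Sec23a, fell to 871 normalized counts in shSTAT3, against 1186 in scramble cells (log2 fold change −0.45, adjusted p = 6.42e-05 per the authors' deposited table). ATF6 lies on chromosome 1 from 161766294 to 161964070 and CREB3L2 on chromosome 7 from 137874979 to 138002067. Both stood at a similar share of scramble, 72.5% and 73.4%.

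ERN1, which encodes the IRE1 enzyme that splices XBP1 mRNA, had the lowest mean of the 38 genes (180 normalized counts) and a log2 fold change of 0.10 per the authors' deposited table (adjusted p = 0.669). Its 95% interval ran from −0.23 to 0.43 on the log2 scale.

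HSPA5, the HSP70-type chaperone BiP that binds both nascent chains and the stress sensors, rose by a small margin, with 3837 normalized counts in shSTAT3 and 3319 in scramble cells. In the authors' deposited table its log2 fold change was 0.21 and its adjusted p 0.0499, the called gene of the set nearest to the threshold. HSP90B1, the HSP90-type chaperone GRP94, fell to 4672 normalized counts in shSTAT3, against 6417 in scramble cells (log2 fold change −0.46, 95% interval −0.59 to −0.33, adjusted p = 1.28e-10 per the authors' deposited table). HYOU1, the exchange factor GRP170 that works on HSPA5, rose to 131% of scramble (log2 fold change 0.39, adjusted p = 2.81e-05 per the authors' deposited table). The 3 large HSP70 and HSP90 family chaperones thus split, with HSPA5 and HYOU1 higher and HSP90B1 lower.

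The J-domain proteins that hand substrates to HSPA5 also went both ways. DNAJB11 rose to 916 normalized counts in shSTAT3, against 658 in scramble cells (log2 fold change 0.48, adjusted p = 1.55e-06 per the authors' deposited table). DNAJB9, known for binding IRE1 and holding it inactive, fell to 160.3 normalized counts in shSTAT3, against 236 in scramble cells (log2 fold change −0.56, 95% interval −0.89 to −0.23, adjusted p = 0.0029 per the authors' deposited table). DNAJC3, an inhibitor of the kinase PERK, had a log2 fold change of −0.23 and did not pass (adjusted p = 0.0553 per the authors' deposited table). DNAJB11 and DNAJB9 each share exon bases with a gene on the opposite strand, TBCCD1 over 15.9% and THAP5 over 6.74% of their exon bases. DNAJB11 also shares 18.8% of its exon bases with AC068631.2, a protein-coding gene on the same strand that is not used here. As strand use is not stated, reads from the opposite-strand pairs cannot be told apart, and strand would not separate those of DNAJB11 and AC068631.2. Each opposite-strand partner moved the same way as the gene it overlaps, with log2 fold changes of 0.55 for TBCCD1 and −0.83 for THAP5 per the authors' deposited table.

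Protein disulphide isomerases form and reshuffle disulphide bonds in client proteins. PDIA4 rose to 2377 normalized counts in shSTAT3, against 1687 in scramble cells (log2 fold change 0.49, 95% interval 0.32 to 0.67, adjusted p = 2.66e-07 per the authors' deposited table). PDIA3, which works on glycoproteins together with calreticulin and calnexin, rose to 111% of scramble (log2 fold change 0.15, adjusted p = 0.0464 per the authors' deposited table). PDIA6 and P4HB did not pass, at −0.14 and −0.13 in log2 units per the authors' deposited table (adjusted p = 0.0575 and 0.16). P4HB is the most abundant of these isomerases by mean per kilobase of exon (1986 normalized counts per kb), followed by PDIA6 (1249), PDIA3 (936) and PDIA4 (700.1), so the isomerase with the largest rise is the least abundant per length of the 4.

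Calreticulin and calnexin are the soluble and the membrane-bound lectin that hold glycoproteins until they are folded. CALR rose to 7340.4 normalized counts in shSTAT3, against 5650 in scramble cells (log2 fold change 0.38, 95% interval 0.23 to 0.52, adjusted p = 2.81e-06 per the authors' deposited table). CANX, with the highest mean of the set, fell to 8645 normalized counts in shSTAT3, against 9830.2 in scramble cells (log2 fold change −0.19, 95% interval −0.31 to −0.06, adjusted p = 0.00931 per the authors' deposited table). The 95% intervals of these partner lectins lie on opposite sides of 0. Per kilobase of exon they are the most abundant of the 38 genes, at 3413 for CALR and 2077 for CANX in mean normalized counts per kb. CALR lies on chromosome 19 from 12938578 to 12944489 and CANX on chromosome 5 from 179678628 to 179730925.

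Of the small secreted or resident factors induced by stress, CRELD2 rose to 513 normalized counts in shSTAT3, against 364 in scramble cells (log2 fold change 0.49, adjusted p = 0.000149 per the authors' deposited table). SDF2L1, which forms a complex with DNAJB11, had a log2 fold change of 0.29 with a 95% interval of −0.03 to 0.62 and did not pass (adjusted p = 0.144 per the authors' deposited table). MANF, a factor that binds HSPA5, was at −0.11 and did not pass (adjusted p = 0.58 per the authors' deposited table).

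The degradation genes held both of the strongest rises by p in the set. SYVN1, the ubiquitin ligase HRD1 at the centre of ERAD, rose to 1999 normalized counts in shSTAT3, against 1387 in scramble cells (log2 fold change 0.53, 95% interval 0.38 to 0.68, adjusted p = 7.04e-11 per the authors' deposited table). OS9, a lectin that brings trimmed glycoproteins to that ligase, rose to 1981 normalized counts in shSTAT3, against 1369 in scramble cells (log2 fold change 0.53, adjusted p = 1.01e-11 per the authors' deposited table). An antisense gene on the opposite strand, AC025165.2, shares 24.4% of the exon bases of OS9. Its level is not known here, so its part in the reads of OS9 was not measured. SEL1L, the adaptor that joins the lectins to SYVN1, rose less, to 117% of scramble (log2 fold change 0.22, adjusted p = 0.0404 per the authors' deposited table). SYVN1 lies on chromosome 11 from 65121780 to 65134533, OS9 on chromosome 12 from 57693955 to 57721557 and SEL1L on chromosome 14 from 81471549 to 81533861. HERPUD1, the stress-induced scaffold of the same ligase complex, was at −0.08 and did not pass (adjusted p = 0.647 per the authors' deposited table).

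The derlins form part of the channel through which misfolded proteins leave the endoplasmic reticulum, and the 3 genes of this family did not share a direction. DERL1 fell to 673 normalized counts in shSTAT3, against 1025 in scramble cells (log2 fold change −0.61, 95% interval −0.80 to −0.41, adjusted p = 1.88e-08 per the authors' deposited table). DERL2 rose to 507 normalized counts in shSTAT3, against 400 in scramble cells (log2 fold change 0.34, 95% interval 0.11 to 0.57, adjusted p = 0.0104 per the authors' deposited table). DERL3 fell to 173 normalized counts in shSTAT3, against 241 in scramble cells (log2 fold change −0.48, adjusted p = 0.00492 per the authors' deposited table). The value of DERL3 is uncertain, because 87.3% of its exon bases in GENCODE 29 also lie in an exon of SMARCB1 on the opposite strand. SMARCB1 has a mean of 1718 normalized counts, against 207 for DERL3, and a log2 fold change of −0.41 per the authors' deposited table (adjusted p = 2.94e-07).

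The EDEM proteins trim mannose from misfolded glycoproteins and so mark them for degradation. EDEM3 rose to 769 normalized counts in shSTAT3, against 655 in scramble cells (log2 fold change 0.23, adjusted p = 0.0346 per the authors' deposited table). EDEM2 was at 0.10 with a mean of 261 normalized counts and did not pass (adjusted p = 0.571 per the authors' deposited table). EDEM1, with a mean of 5593 normalized counts, the third highest of the set, was at −0.12 and did not pass (adjusted p = 0.658 per the authors' deposited table).

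EDEM1 stands apart in its precision. Its implied standard error was 0.197, the largest of the 38 genes, at a level where the 1206 tested genes of the same decile of mean had a median of 0.0745. That is 2.64 times the median of its decile, and 12 genes of the decile had a larger one. The other 37 genes had standard errors between 0.843 and 1.23 times the median of their own decile. The 95% interval of EDEM1 ran from −0.50 to 0.27, and a fall as large as that of HSP90B1 lies inside it. The table gives no values per library, so whether cultures of a group differ in EDEM1, and which, cannot be read from it.

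**Figure D3:**
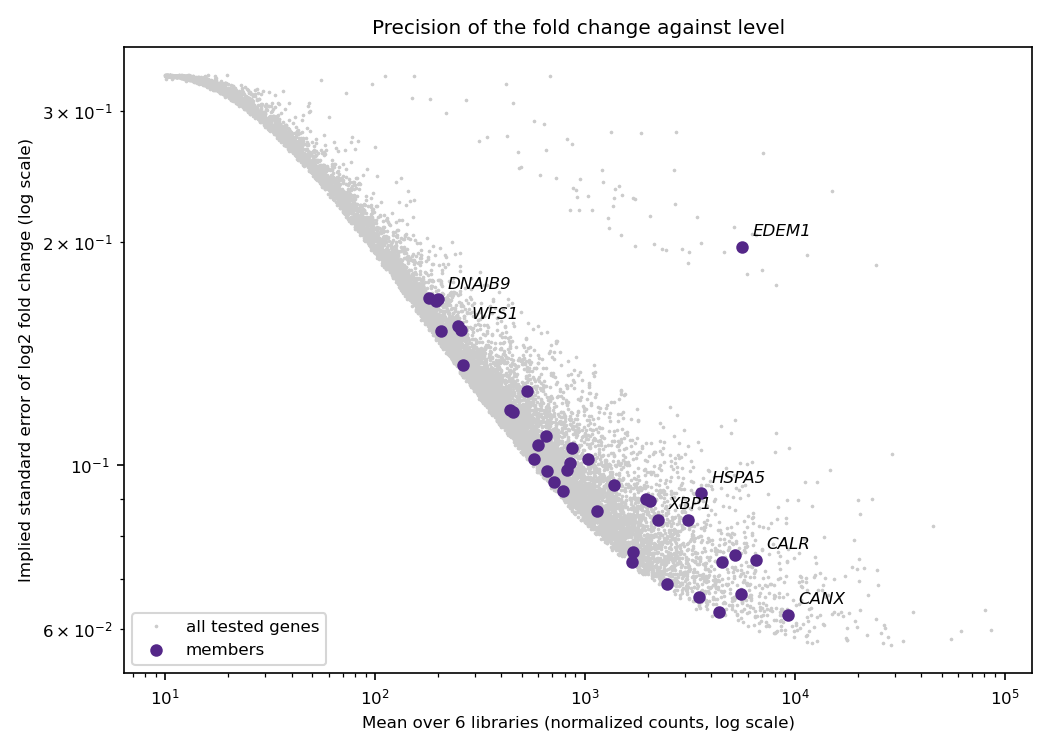
Standard error of the log2 fold change, implied by fold change and p, against the mean over 6 libraries in normalized counts, both on log axes, for all tested genes (grey) and the 38 genes of the set (purple). EDEM1 lies far above the main band at a standard error of 0.197, while the other genes of the set follow the band.

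COPII coats form the vesicles that carry folded cargo to the Golgi, with SEC23 and SEC24 as the inner layer and SEC13 and SEC31 as the outer layer. SEC31A rose to 2851 normalized counts in shSTAT3, against 2050.2 in scramble cells (log2 fold change 0.48, 95% interval 0.34 to 0.61, adjusted p = 9.15e-11 per the authors' deposited table). SEC13, its partner in the outer layer, was at −0.03 with a 95% interval of −0.20 to 0.14 and did not pass (adjusted p = 0.799 per the authors' deposited table). SEC23B fell to 742 normalized counts in shSTAT3, against 907 in scramble cells (log2 fold change −0.29, adjusted p = 0.00955 per the authors' deposited table). SEC24D, a cargo adaptor, was at −0.24 and did not pass (adjusted p = 0.0591 per the authors' deposited table). SEC31A lies on chromosome 4 from 82818661 to 82901166 and SEC23B on chromosome 20 from 18507482 to 18561415.

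The SEC61 channel brings nascent chains into the endoplasmic reticulum, and its subunits parted in the table. SEC61A1, the pore, rose to 5009 normalized counts in shSTAT3, against 3973 in scramble cells (log2 fold change 0.33, adjusted p = 3.64e-05 per the authors' deposited table). SEC61B, a small subunit beside the pore, fell to 609 normalized counts in shSTAT3, against 716 in scramble cells (log2 fold change −0.23, adjusted p = 0.0408 per the authors' deposited table). Per kilobase of exon the means of both are close, 1128 for SEC61A1 and 1014 for SEC61B in normalized counts per kb. SSR1, of the translocon-associated complex, was at −0.08 and did not pass (adjusted p = 0.494 per the authors' deposited table).

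WFS1, a calcium-handling membrane protein that also restrains ATF6, had the highest fold change of the 38 genes, with 314 normalized counts in shSTAT3 and 200.4 in scramble cells (log2 fold change 0.65, 95% interval 0.35 to 0.95, adjusted p = 0.0001 per the authors' deposited table). It lies on chromosome 4 from 6269849 to 6303265. UFM1, a ubiquitin-like protein joined to ribosomes at the endoplasmic reticulum, was at 0.10 and did not pass (adjusted p = 0.483 per the authors' deposited table).

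Genes with a stress element found in the promoter did not share a direction. All but CANX are printed above, and the match of CANX lies after the start of another of its transcripts. Of the 7 genes with an ERSE, CALR, CRELD2 and HSPA5 rose, CANX, HSP90B1 and XBP1 fell, and PDIA6 did not pass, with log2 fold changes from −0.84 to 0.49 per the authors' deposited table. Of the 3 genes with an ERSE-II, HYOU1 rose, while HERPUD1 and SDF2L1 did not pass. Of the 24 genes with a promoter sequence and neither element 10 rose and 5 fell. Among all tested genes 21.3% rose and 23.2% fell, so calls in both directions were common throughout the table. The split is therefore not particular to genes with an element, and whether they differ from other genes was not tested. A match to these letters is a description of the sequence, and whether a factor binds there in REH cells was not measured.

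The calls of 5 genes of the set are close to the threshold, with adjusted p between 0.03 and 0.05, namely HSPA5, PDIA3, SEL1L, EDEM3 and SEC61B, and all 5 calls were lost when p was adjusted over every gene with a p. Another 3, DNAJC3, PDIA6 and SEC24D, fell short with adjusted p under 0.06. An adjusted p threshold of 0.01 would leave 4 of 10 degradation genes called, 2 higher and 2 lower, beside 34.1% of all tested genes and 37.0% of the other endoplasmic reticulum genes, a share near the background with no lean to either direction. Exons of 16 of the 38 genes overlap those of another gene in GENCODE 29, 14 of the 16 with no single gene that covers over 25% of their exon bases, and processed copies named after XBP1, PDIA3, SEC13 and SSR1 exist, while reads shared with these copies were not measured.

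The rest of the pathway was taken as 11 lists of other genes by role, in which 200 of 218 genes found in the table were tested. Of these 47 rose and 53 fell, so that 100 were called, a share next to the 50.4% of tested genes within the range of means of the 38 genes, with a median log2 fold change of 0.00 per the authors' deposited table. Other chaperones and prolyl isomerases had 9 rises and 4 falls among 24 tested (54.2% called), with a median of 0.15 per the authors' deposited table. Other degradation genes had 9 rises and 10 falls among 42 tested (45.2% called, median 0.02 per the authors' deposited table). Whether the set and these lists differ was not tested.

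**Figure D4:**
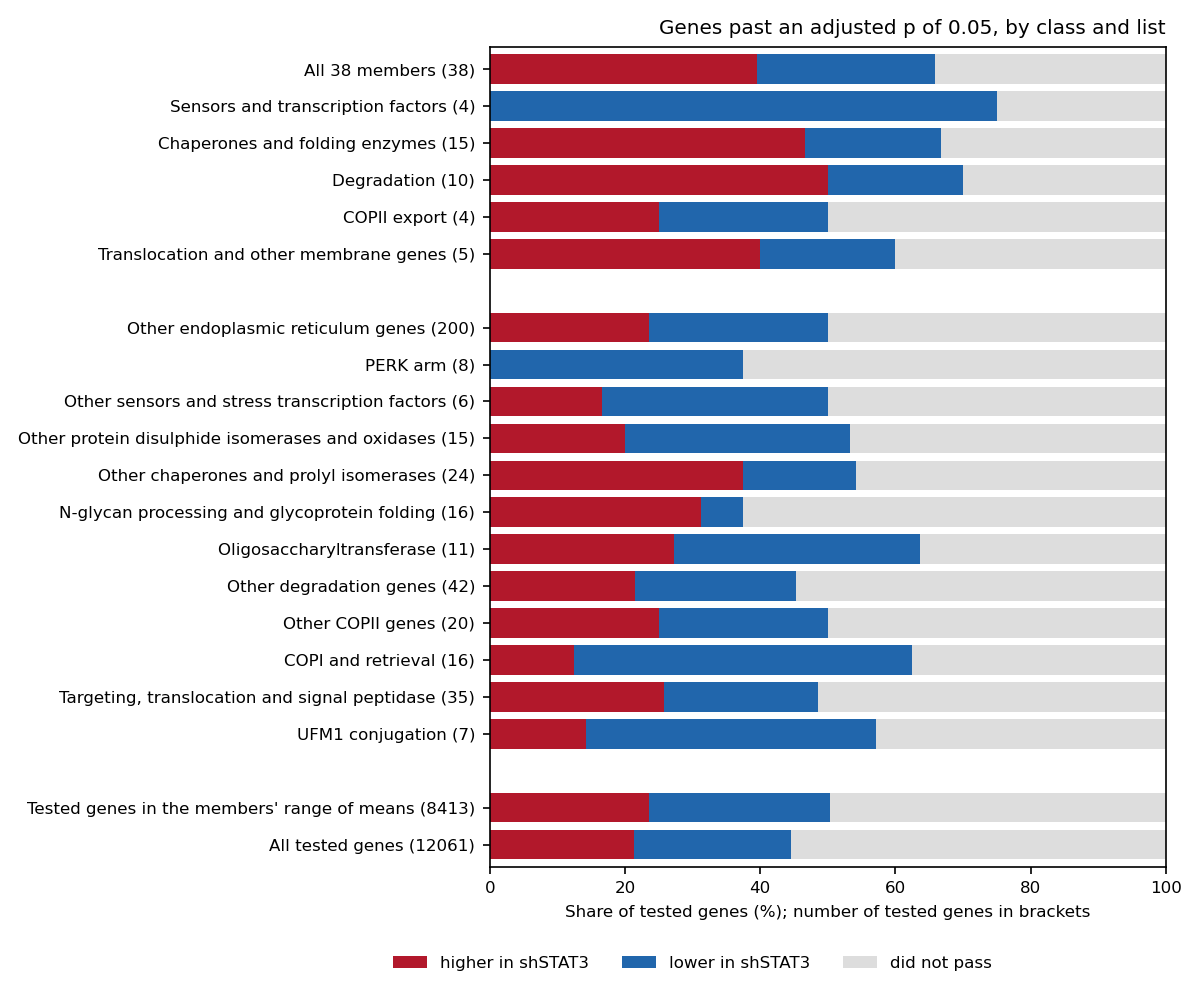
Share of tested genes that were higher in shSTAT3 (red), lower (blue) or did not pass (grey), for the 38 genes and their classes (top), for the 11 lists of other endoplasmic reticulum genes (middle) and for tested genes as a whole (bottom), with the number tested in brackets. The 38 genes were called in 65.8% of cases, the other lists in 100 of 200 and all tested genes in 44.5%.

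The third sensor belongs to the list of the PERK arm, which lowers translation by phosphorylating the initiation factor eIF2 and raises ATF4 protein. Of 8 tested genes 3 fell and 0 rose by DESeq2's adjusted p. That is 37.5% called, below the 44.5% of all tested genes and the 50.4% of those within the range of means of the 38 genes. At an unadjusted p under 0.05 1 gene, NFE2L2, which encodes an antioxidant factor that PERK phosphorylates, was higher. EIF2AK3, which encodes PERK, fell to 1091 normalized counts in shSTAT3, against 1644 in scramble cells (log2 fold change −0.59, 95% interval −1.04 to −0.14, adjusted p = 0.025 per the authors' deposited table). TRIB3, a target of ATF4 and DDIT3 that damps the response, and EIF2S1, the phosphorylated subunit of eIF2, had log2 fold changes of −0.83 and −0.20 per the authors' deposited table. ATF4 was at −0.05, DDIT3, the death-linked factor CHOP, at 0.00 and PPP1R15A, which reverses eIF2 phosphorylation, at 0.19 in log2 units per the authors' deposited table, and none of the 3 passed (adjusted p = 0.689, 0.992 and 0.253). CHAC1, a target of ATF4, has a log2 fold change of −0.92 and no p per the authors' deposited table. The implied standard errors of EIF2AK3 and TRIB3 were 0.23 and 0.24, higher than those of 99.5% and 99.7% of genes in their deciles of mean, as that of EDEM1 was above all but 12 in its decile. EIF2AK3 and TRIB3 are both among the 8 tested genes of the PERK arm. Errors this large for their level also occurred outside the stress genes, and whether their share differs between lists was not tested. Of the 200 other endoplasmic reticulum genes tested 4 stood at the 99th percentile of their decile or above, the others being MAN1A1 and SRP9, and the B-cell precursor marker MME stood at 99.3% and the myeloid marker MPO at 98.8%. These genes were picked out after their values were seen.

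Among other sensors and stress factors 1 of 6 rose and 2 fell. The called share of this list was close to the 50.4% of tested genes within the range of means of the set. CREB3L4, a relative of CREB3L2, and MBTPS2, the protease that makes the second cut in ATF6, fell, with log2 fold changes of −0.90 and −0.66 per the authors' deposited table, while ATF6B, the closest relative of ATF6, rose by 0.23 in log2 units per the authors' deposited table. ATF6 and ATF6B thus stood on opposite sides of 0.

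In the remaining folding lists the calls were split. Other disulphide isomerases and oxidases had 3 rises and 5 falls among 15 tested (53.3% called). TXNDC12 and TMX4 fell, at −0.62 and −0.88, and the sulphhydryl oxidase gene QSOX2 rose by 0.66 in log2 units per the authors' deposited table. The calcium-binding genes RCN1 and RCN2, of the reticulocalbins, fell, at −0.85 and −0.65, and the J-domain gene DNAJC16 rose by 0.59 in log2 units per the authors' deposited table. N-glycan processing genes had 5 rises and 1 fall among 16 tested (37.5% called). MOGS, the glucosidase that makes the first cut in the transferred glycan, MAN1B1, which starts mannose trimming, and ERGIC3 rose by 0.69, 0.46 and 0.35 in log2 units per the authors' deposited table.

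Oligosaccharyltransferase, which attaches the glycan as proteins enter the endoplasmic reticulum, had 3 rises and 4 falls among 11 tested (63.6% called). STT3B, a catalytic subunit, fell to 6536 normalized counts in shSTAT3, against 14108 in scramble cells (log2 fold change −1.11, adjusted p = 4.75e-33 per the authors' deposited table). RPN2 and MAGT1, a subunit that works with STT3B, fell too, at −0.63 and −0.64 in log2 units per the authors' deposited table.

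Of the other degradation genes NGLY1, which removes glycans from retrotranslocated proteins, UBE2J1, a ubiquitin-conjugating enzyme that serves SYVN1, and ERLIN2 fell, at −0.64, −0.69 and −0.79 in log2 units per the authors' deposited table. Other COPII genes had 5 rises and 5 falls among 20 tested. Their called share was close to the 50.4% of tested genes within the range of means of the set. SEC16A, which organises the exit sites, fell, while SEC24C and SEC31B rose, with log2 fold changes of −0.42, 0.39 and 0.49 per the authors' deposited table. COPI and retrieval genes, which bring proteins back from the Golgi, had 2 rises and 8 falls among 16 tested (62.5% called). Their median was −0.17 per the authors' deposited table. COPB2 and ARFGAP3 fell, at −0.35 and −0.44, and ARFGAP1 rose by 0.53 in log2 units per the authors' deposited table.

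Targeting, translocation and signal peptidase genes had 9 rises and 8 falls among 35 tested (48.6% called). SRP68, of the signal recognition particle, fell, at −0.65, while EMC1 and EMC10, of the membrane protein insertase EMC, rose by 0.62 and 0.60 in log2 units per the authors' deposited table. Genes that conjugate UFM1 had 1 rise and 3 falls among 7 tested (57.1% called). UFL1, the ligase of UFM1, fell, at −0.43, and DDRGK1, its membrane anchor, rose by 0.49 in log2 units per the authors' deposited table.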

How the data were processed

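Total RNA from 6 REH cultures, 3 shSTAT3 and 3 scramble, was sequenced from TruSeq RNA v2 libraries, per the labels' protocols. Without order or settings, featureCounts, Bowtie2, Trimmomatic, Picard, bcl2fastq 2.19, DESeq2 and the build hg38 are listed per the submitters' processing notes. The annotation used, the model and whether counting used strand are not given here.

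The mean in the deposited table is a normalized signal, each library's count scaled by its size factor and then averaged, per the file headers (DESeq2's baseMean). The fold change is on the log2 scale, and the p-value and its adjusted form are DESeq2's, per the file headers. Libraries averaged 11485100 normalized counts. With no values per library, the authors' own test across all genes was used, as the plan allowed, with a gene called at an adjusted p under 0.05. The standard error of a fold change is its size over the normal quantile of its p. The fold changes are shrunken toward 0, as low genes show (ERN2, with a mean of 0.147 normalized counts, has −0.06 in log2 units and an implied standard error of 0.092), so errors, intervals and group levels are those of shrunken values. Group levels solve mean and fold change for 2 groups of 3, and are therefore approximate.

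Every gene of the set may be named. Also named are STAT3, EIF2AK3, ATF4, DDIT3 and PPP1R15A, and up to 3 called genes of each other list with the smallest adjusted p. For 1 of these genes the result is not reported here. Genes that overlap or share a role with these and marker genes were named after their values were seen. Members and lists were chosen with earlier results of these data known. Positions and exon lengths (union of exons of the basic set) came from GENCODE 29, promoters from RefSeq (34 of 38 genes matched). Alternatives were other thresholds, filters and adjustments, and fold changes less a fit on length, GC content and mean (known for 94.4% of tested genes and all 38 of the set). Computations were tested on simulated data. Tools were scipy 1.17.1, pandas 2.3.3, numpy 2.4.6 and, for plots, matplotlib 3.10.9, under Python 3.11.15.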

Additional observations from a re-analysis of the deposited data

How the results depend on the processing

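Of the 25 genes of the set called at an adjusted p of 0.05, 19 remained at a threshold of 0.01 (50% of the set, against 34.1% of all tested genes), 20 with adjustment over every gene with a p (52.6%, against 28.7% of those 17701 genes), 19 with a fold change of at least 1.2 (50%, against 40.3%), and all 25 with a mean of at least 50 (65.8%, against 48.7%). At a threshold of 0.1 there were 28 (73.7%, against 50.6%). At a threshold of 0.01 the degradation genes called were 4 in place of 7. The strictest choice, Holm's adjustment over the tested genes, left 10 of the 38 (26.3%) and 2046 of 12061 tested genes (17.0%), against 42 of the 200 other tested endoplasmic reticulum genes. By class it left 1 sensor or transcription factor (XBP1), 5 chaperones and folding enzymes, 3 degradation genes, 1 COPII gene and 0 translocation and other membrane genes, where DESeq2's own adjustment called 3. No class median changed sign under any alternative run. That of translocation and other membrane genes moved most, to 0.25 from 0.10 on the log2 scale after a fit on length, GC content and mean was taken off. Leaving out a culture could not be run without values per library. No paired analysis was possible because the table holds no values per library, so the shared replicate numbers could not be used as a block.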

Other observations

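Several pairs of related endoplasmic reticulum genes differed in the table, beyond those described for the derlins and for calreticulin and calnexin. The genes of these pairs were chosen after their values were seen, and the difference within a pair was not tested. STT3A, the other catalytic subunit of oligosaccharyltransferase, had a log2 fold change of 0.04 and did not pass (adjusted p = 0.746 per the authors' deposited table), against −1.11 for STT3B. ERLIN1 rose by 0.33 in log2 units per the authors' deposited table, against −0.79 for its relative ERLIN2. SEC23A was at −0.03 and did not pass (adjusted p = 0.828 per the authors' deposited table), against −0.29 for SEC23B. Of the SEC24 forms, SEC24A fell, at −0.36, SEC24C rose, at 0.39, and SEC24B at 0.16 and SEC24D at −0.24 did not pass per the authors' deposited table. SAR1A and SAR1B, the GTPases that start COPII coat assembly, both rose, by 0.28 and 0.35 in log2 units per the authors' deposited table.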
